A study of Mus musculus with 16 samples.

Results

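Wnt6 and the other Wnt ligand genes of the kidney were examined in whole mouse kidneys, from controls and from mice with the transcription factor gene Hes1 deleted in Pax8-expressing cells. The set holds 9 genes of the 28971 in the count table: the ligand genes Wnt6, Wnt4, Wnt5a, Wnt7b, Wnt9b, Wnt10a and Wnt11, and Axin2 and Lef1, which read out the pathway. They were picked by name with the difference between Hes1-deleted and control kidneys already known, so their differences between these groups are given as a description, with no p-value, and calls among them support nothing. Wnt6 leads the set: its mean level was 5.23 CPM (counts scaled to a common library total) in the Hes1-deleted kidneys against 0.938 CPM in the controls, with no overlap. The other 8 genes differed by far less, and for 6 of them the groups overlapped.

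Wnt ligands are secreted, lipid-modified glycoproteins that bind Frizzled receptors on nearby cells. In the canonical branch, Frizzled and its co-receptors Lrp5 and Lrp6 stop the destruction of beta-catenin, which enters the nucleus, binds TCF and LEF factors and turns on targets such as Axin2; other branches act on cell shape and movement without beta-catenin. In the developing kidney, Wnt9b and Wnt11 come from the ureteric bud, Wnt9b induces the mesenchyme to form nephrons through Wnt4, and Wnt7b from the collecting duct epithelium shapes the medulla.

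The mice were Pax8-rtTA; TRE-Cre; Hes1 f/f animals (Hes1 cKO, conditional knockout) and wild type control littermates; the alleles of the littermates were not given in the sources used here. All mice of both groups drank doxycycline (1 mg/mL, with 5% sucrose) for 1 week from 3 weeks of age, which switches on Cre in Pax8-expressing cells. Pax8 is active along the tubule epithelium, so the deletion is not limited to the collecting duct, and glomerular, vascular and interstitial cells keep the gene. Total RNA of whole kidneys was sequenced, and 3 Hes1 cKO and 4 control libraries were compared; the numbers in "Hes1 cKO 1" and "control 4" only name columns.

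The libraries held 16973931 to 20420422 counts each. Hes1, a repressor that responds to Notch receptors, was at 17.2 to 19.8 CPM in Hes1 cKO and 42.8 to 67.6 CPM in control, which is -1.61 in log2 fold change with an SE of 0.16 (adjusted p 0.00357 in edgeR; exact two-sided permutation p 0.0286, the smallest that 35 splits allow). Xist, which is made from an inactive X chromosome, was at 333 to 367 CPM in Hes1 cKO 3, control 3 and control 4, while the 4 remaining libraries reached 0.371 CPM at most. Adrenal cortex markers (8 of 8 measured) summed to 52.4, 2.72 and 1094 CPM in Hes1 cKO 1, 2 and 3 and to 807, 210, 3.24 and 4.203 CPM in control 1, 2, 3 and 4. Both features cross the groups, and their values are given beside the genes they move with.

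Every one of the 9 genes had at least 12 counts in each library and passed the filter on low counts. Of 15615 tested genes, the quasi-likelihood test of edgeR called 53 at an adjusted p under 0.05 (0.339%), 50 of them higher in Hes1 cKO (0.32%). Of the 9 genes 1 was called, Wnt6. All Hes1 cKO libraries lay above all controls for 2 of the 9 genes, Wnt6 and Wnt4, against 3.71% of all tested genes, and below them for 1, Wnt5a, against 3.29%. Since the genes were chosen on this contrast, nothing is read from these counts. In whole tissue, fewer cells of a type and less RNA per cell cannot be told apart.

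**Figure D1:**
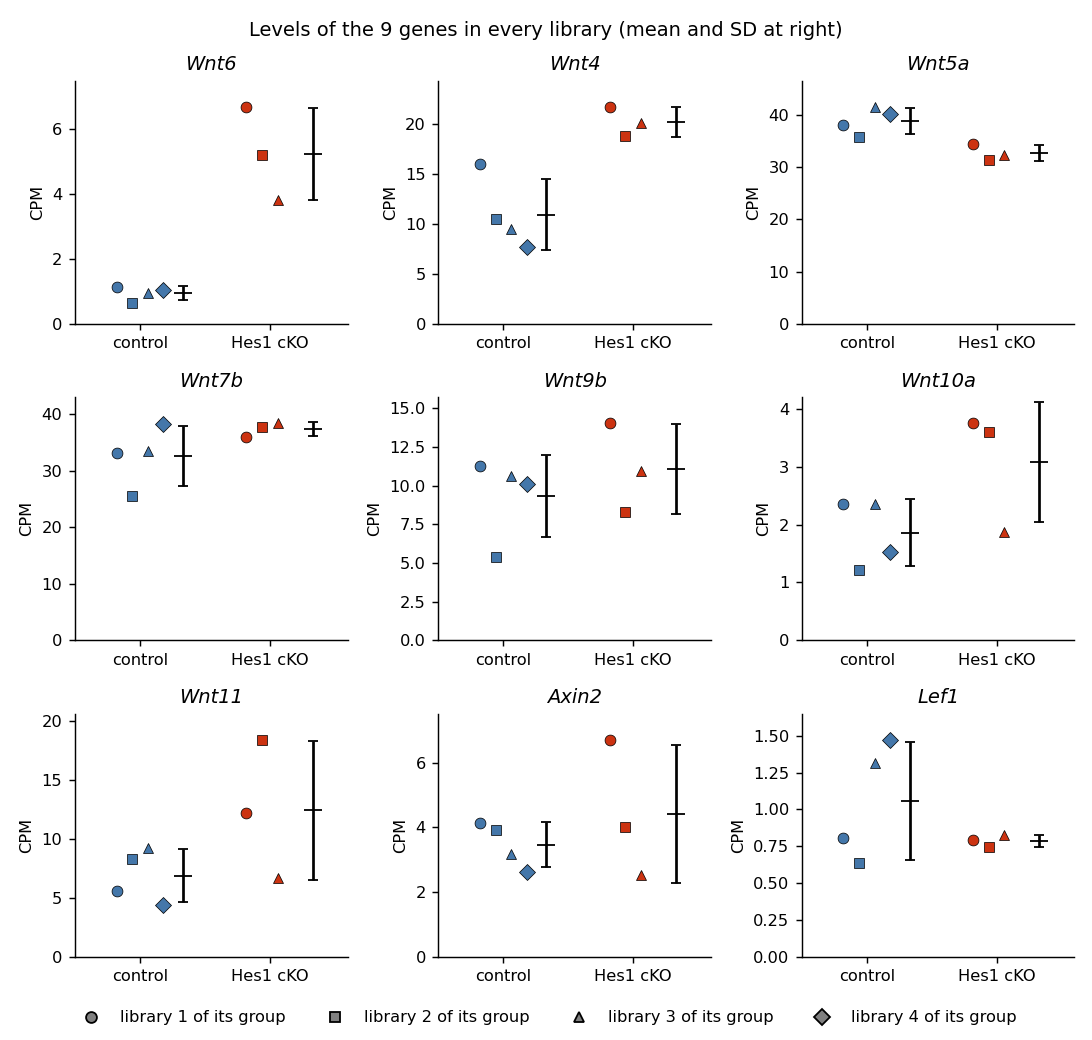
Level of each of the 9 genes (CPM, linear axes from 0) in the 4 control and 3 Hes1 cKO libraries; symbols mark the library within its group, and the bar at right gives the mean and SD. Wnt6 and Wnt4 lie higher in every Hes1 cKO library than in any control, Wnt5a lies lower, and the groups overlap for the other 6 genes.

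Wnt6 (ENSMUSG00000033227) is a canonical ligand made by the ureteric bud of the embryonic kidney. It was at 6.67, 5.19 and 3.82 CPM in Hes1 cKO 1, 2 and 3, and at 1.15, 0.635, 0.933 and 1.04 CPM in control 1, 2, 3 and 4. The lowest Hes1 cKO library thus lay 3.33-fold above the highest control. Hes1 cKO averaged 5.23 ± 1.42 CPM (SD, n = 3) and control 0.938 ± 0.220 CPM (SD, n = 4), which is 5.56-fold, or 2.47 as a log2 fold change (SE 0.28). The control values rest on 12 to 20 counts. The exact Poisson 95% interval of control 1, the highest control, ran from 0.701 to 1.77 CPM, and that of Hes1 cKO 3, the lowest Hes1 cKO library, from 2.95 to 4.87 CPM; these intervals give the counting precision of single libraries and not the spread between kidneys. Within the Hes1 cKO group, Wnt6 was lowest in Hes1 cKO 3, the 1 library of that group with high Xist. This library was also the richest in adrenal markers (1094 CPM), so the 2 features cannot be told apart within the group. The difference of Hes1 cKO 3 to the 2 controls with high Xist was 1.28 on the log2(CPM + 1) scale. Between the 2 Hes1 cKO and 2 controls with low Xist it was 1.88. The log2 fold change was 2.41 with Xist as a covariate and 2.48 with the adrenal level as one.

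Wnt6 lies on chromosome 1 (74771892 to 74785322, plus strand, GRCm38, GENCODE M21), and Wnt10a starts 6193 bases beyond its end on the same strand. The antisense gene Gm29539 overlaps the Wnt6 locus, and its count was at most 1 in any library, so few reads were assigned to it; whether the counting used strand was not given in the sources used here. The 250 bases before the transcription start of Wnt6, Axin2 and Wnt11 are shown, the first because that gene differed most, and the others because they are the direct readout of the pathway and the ligand with the largest SD in CPM. They are RefSeq promoter windows on GRCm38.p6, plus strand, at chr1:74771642-74771891, chr11:108920099-108920348 and chr7:98834862-98835111, in the order Wnt6, Axin2, Wnt11. Capitals mark matches on either strand to CACNAG (the N-box, bound by Hes proteins), CACGNG (the class C site, also bound by Hes proteins), TGGGAA (the core bound by RBPJ, the DNA-binding partner of Notch) or CTTTGAT (bound by TCF and LEF factors); CACGAG would match both of the first 2 motifs.
Wnt6: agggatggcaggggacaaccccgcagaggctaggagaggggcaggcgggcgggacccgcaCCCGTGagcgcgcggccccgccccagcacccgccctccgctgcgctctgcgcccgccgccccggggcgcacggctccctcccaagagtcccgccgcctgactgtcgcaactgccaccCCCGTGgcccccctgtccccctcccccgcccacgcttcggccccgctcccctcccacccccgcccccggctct
Axin2: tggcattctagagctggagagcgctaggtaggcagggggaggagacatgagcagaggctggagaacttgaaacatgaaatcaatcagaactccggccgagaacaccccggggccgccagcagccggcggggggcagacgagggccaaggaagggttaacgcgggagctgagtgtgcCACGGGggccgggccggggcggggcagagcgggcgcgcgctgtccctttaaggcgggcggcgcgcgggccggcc
Wnt11: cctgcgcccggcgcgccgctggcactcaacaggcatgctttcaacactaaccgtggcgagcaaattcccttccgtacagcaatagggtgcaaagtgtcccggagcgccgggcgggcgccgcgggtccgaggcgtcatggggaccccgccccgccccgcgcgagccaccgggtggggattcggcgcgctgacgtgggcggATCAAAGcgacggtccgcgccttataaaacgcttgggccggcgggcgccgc

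The Wnt6 window holds 2 matches to the class C site, starting 190 and 73 bases before the transcription start, and its GC content is 79.6%. Axin2 holds 1 class C match, 74 bases before the start. The Wnt11 window shown holds 1 TCF/LEF match, 51 bases before the start. RefSeq gives Wnt11 another start as well, and its window (chr7:98838595-98838844) holds 1 N-box match, 147 bases before that start. Among all 32851 promoter windows of this length, 23.5% hold a class C match, 36.7% an N-box, 21.6% the RBPJ core and 3.21% the TCF/LEF motif. A match is a string of letters and not a measured site. Of the 9 genes, 6 had a promoter entry. Among those not shown, Wnt4 holds no match to any of these motifs, and Wnt9b holds 1 N-box match, 14 bases before its start. Lef1 has several starts, with class C matches 190 bases before one and 79 bases before another.

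Wnt10a, the neighbour of Wnt6 and also a canonical ligand, was at 3.76, 3.61 and 1.88 CPM in Hes1 cKO 1, 2 and 3, and at 2.35, 1.22, 2.36 and 1.53 CPM in control 1 to 4. Hes1 cKO 1 and 2 lay above all controls, while Hes1 cKO 3 lay among them, so the groups overlapped. Its log2 fold change was 0.73 (SE 0.33). On the log2(CPM + 1) scale the difference was 0.78 between the low-Xist libraries and -0.02 between the high-Xist ones. The latter rests on 1 Hes1 cKO library, Hes1 cKO 3, which was also rich in adrenal markers. The other measured genes within 100000 bases of Wnt6, chosen by position, were not called by edgeR: Prkag3, Cyp27a1 and Ttll4 had log2 fold changes of 0.27, 0.28 and 0.09, with edgeR adjusted p-values of 0.9795, 0.942 and 0.9875. Cdk5r2 and Fev had too few counts to be tested.

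Wnt4, the ligand that drives the embryonic mesenchyme into nephrons and is also made in the adrenal cortex, was at 21.7, 18.8 and 20.2 CPM in Hes1 cKO 1, 2 and 3. In control 1, 2, 3 and 4 it was at 16.0, 10.5, 9.55 and 7.75 CPM. The Hes1 cKO libraries were close to each other and above every control, the lowest by 1.17-fold over control 1. The means were 20.2 ± 1.48 CPM (SD, n = 3) and 10.96 ± 3.55 CPM (SD, n = 4), and the log2 fold change was 0.89 (SE 0.21). Control 1, the highest control for Wnt4, was also the control richest in adrenal markers (807 CPM). Hes1 cKO 2, with 18.8 CPM of Wnt4, had 2.72 CPM of these markers, and Hes1 cKO 3, with 20.2 CPM of Wnt4, had 1094 CPM. With the adrenal level as a covariate the log2 fold change was 0.90, and without control 1 it was 1.124. The part of adrenal tissue in the Wnt4 difference was not tested.

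Wnt11, a mostly non-canonical ligand of the ureteric bud tips, had the largest SD in CPM of the 9 genes, in Hes1 cKO. It was at 12.2, 18.4 and 6.65 CPM in Hes1 cKO 1, 2 and 3, and at 5.56, 8.26, 9.22 and 4.42 CPM in control 1 to 4. Hes1 cKO 1 and 2 were above every control and Hes1 cKO 3 was among them. The log2 fold change of 0.86 (SE 0.34) dropped to 0.46 without Hes1 cKO 2. As for Wnt10a, the difference on the log2(CPM + 1) scale was found between the low-Xist libraries (1.04) and was near 0 between the high-Xist ones (0.04). The latter rests on 1 Hes1 cKO library only, Hes1 cKO 3, which was also rich in adrenal markers. The split by Xist went the other way for Wnt4 (0.60 low, 1.14 high), Wnt5a (-0.16 low, -0.33 high) and Lef1 (0.04 low, -0.39 high). Values were smaller between the high-Xist libraries for Wnt7b (0.33 low, 0.10 high) and Wnt9b (0.41 low, 0.07 high). Axin2 changed sign (0.31 low, -0.14 high).

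Wnt9b, the inducer of nephron formation, was at 14.0, 8.26 and 10.9 CPM in Hes1 cKO 1, 2 and 3, and at 11.2, 5.40, 10.6 and 10.1 CPM in control 1 to 4. The groups overlapped widely, with a log2 fold change of 0.25 (SE 0.26) that was 0.04 without Hes1 cKO 1, 0.06 without control 2 and 0.42 without Hes1 cKO 2. Wnt7b, the collecting duct ligand, was at 36.0, 37.7 and 38.4 CPM in Hes1 cKO 1, 2 and 3, and at 33.2, 25.5, 33.5 and 38.2 CPM in control 1 to 4. Only control 4 reached the Hes1 cKO range. The log2 fold change of Wnt7b was 0.20 (SE 0.13), and 0.09 without control 2, the lowest library.

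Wnt5a, a non-canonical ligand found in stromal cells of many organs, was the 1 ligand gene of the set with a lower mean in Hes1 cKO. It was at 34.4, 31.5 and 32.3 CPM in Hes1 cKO 1, 2 and 3, and at 38.1, 35.8, 41.5 and 40.2 CPM in control 1 to 4. The groups did not overlap, but the gap was narrow, with the lowest control 1.04-fold above the highest Hes1 cKO library. The means were 32.7 ± 1.54 CPM (SD, n = 3) and 38.9 ± 2.52 CPM (SD, n = 4), so that the log2 fold change was -0.25 (SE 0.09). Stroma markers (7 of 7 measured) summed to 284 to 641 CPM in Hes1 cKO and 344 to 545 CPM in control, with 3 higher, 4 lower and 0 called; their part in the Wnt5a difference was not tested.

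Axin2 and Lef1 stand at the receiving end of the pathway. Axin2, a feedback inhibitor that canonical signalling turns on, was at 6.72, 4.01 and 2.53 CPM in Hes1 cKO 1, 2 and 3. In control 1, 2, 3 and 4 it was at 4.13, 3.92, 3.18 and 2.62 CPM. One Hes1 cKO library was the highest of all 7 and another the lowest, so the groups overlapped fully. The log2 fold change of 0.35 (SE 0.32) was -0.08 without Hes1 cKO 1, 0.63 without Hes1 cKO 3 and 0.19 with Xist as a covariate. Hes1 cKO 1, highest for Axin2, also had the highest sum of stroma markers (641 CPM); the part of these in the value was not tested.

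Lef1, a DNA-binding partner of beta-catenin that T cells also express, was barely counted. It was at 0.793, 0.742 and 0.823 CPM in Hes1 cKO 1, 2 and 3, and at 0.803, 0.635, 1.32 and 1.47 CPM in control 1 to 4, which is 12 to 27 counts per library. Its higher values were those of control 3 and control 4, the controls with high Xist. The log2 fold change was -0.43 (SE 0.36), and -0.26 with Xist as a covariate and -0.22 without control 4. Of 6 T cell markers, 5 stayed under 1 CPM in every library, among them Cd3d, Cd3e and Cd3g. The 6 together summed to 3.28, 4.01 and 4.35 CPM in Hes1 cKO 1, 2 and 3. In control 1 to 4 they summed to 7.00, 22.7, 19.0 and 8.24 CPM. In control 2 and control 3 most of the sum came from the 1 remaining marker. Control 2, highest for these markers, had the lowest Lef1 value, but with 12 counts beside 14 in control 1 this order is not resolved. The part of T cells in the Lef1 value was not tested.

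Levels of different genes were set side by side per kilobase of exon (CPM per kb). In control kidneys the order of levels ran Wnt7b (6.66 ± 1.08), Wnt5a (4.97 ± 0.322), Wnt4 (2.61 ± 0.848), Wnt9b (2.07 ± 0.589), Wnt11 (1.66 ± 0.543), Wnt10a (0.755 ± 0.236), Axin2 (0.629 ± 0.126), Wnt6 (0.428 ± 0.100) and Lef1 (0.120 ± 0.0457; all CPM per kb, SD, n = 4). The ranges of neighbours in this order overlapped except between Wnt5a and Wnt4, Wnt11 and Wnt10a, and Wnt6 and Lef1. Wnt6 was thus the lowest of the 7 ligand genes in control. In Hes1 cKO its level was 2.38 ± 0.649 CPM per kb (SD, n = 3), within the ranges of Wnt9b (2.45 ± 0.638) and Wnt11 (3.01 ± 1.43), and above Wnt10a (1.25 ± 0.422) in 3 of 3 libraries. Wnt4 (4.82 ± 0.352) stood above Wnt5a (4.18 ± 0.197) in all 3 Hes1 cKO libraries, the reverse of the control order. By the longest transcript in place of all exons, their means in Hes1 cKO were closer, 4.82 and 4.67. By that length Wnt4 and Wnt5a were about level in Hes1 cKO 2.

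**Figure D2:**
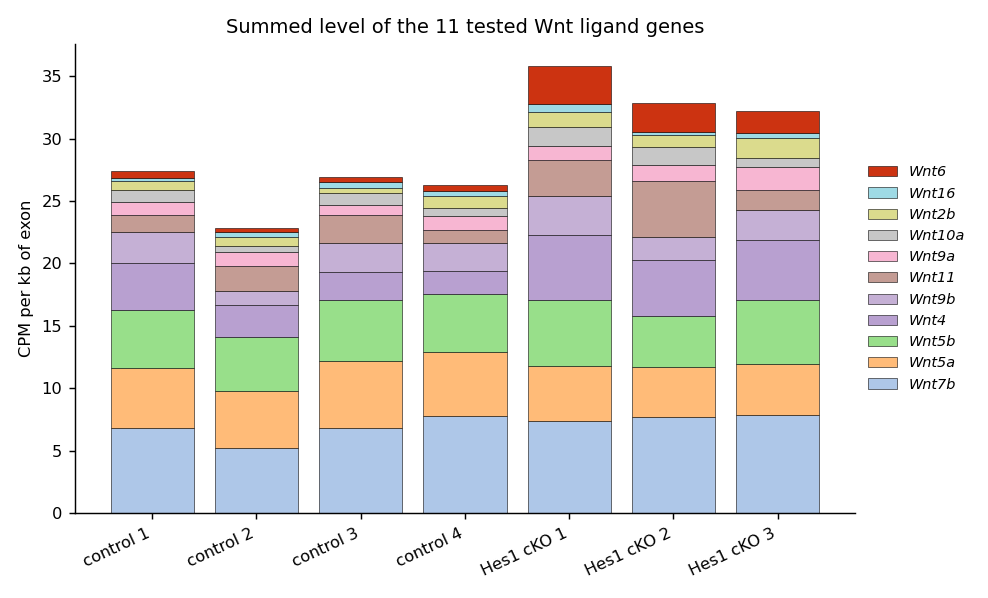
Level per kilobase of exon (CPM per kb) of the 11 tested Wnt ligand genes, stacked for each library. The stacks reach 32.2 to 35.8 in Hes1 cKO and 22.8 to 27.4 in control, and the Wnt6 segment at the top is the one that widens most in relative terms.

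The 7 ligand genes and the 4 other ligand genes that could be tested (Wnt2b, Wnt5b, Wnt9a and Wnt16) were summed. The sum was 35.8, 32.9 and 32.2 CPM per kb in Hes1 cKO 1, 2 and 3, and 27.4, 22.8, 27.0 and 26.3 CPM per kb in control 1 to 4. The share of Wnt6 in the sum was 7.04% ± 1.55 (SD, n = 3) for Hes1 cKO against 1.64% ± 0.282 (SD, n = 4) for control. Wnt5a made up 12.4% ± 0.314 against 19.3% ± 1.03, and Wnt4 14.3% ± 0.656 against 10.1% ± 3.03. The share of Wnt7b, the most abundant ligand gene, was 22.8% ± 1.99 against 25.7% ± 2.91.

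Genes were ranked by how closely their pattern followed that of Wnt6, as the root mean square distance between profiles of log2(CPM + 1) centred on each gene's mean over the 7 libraries. Among 15606 genes the nearest was Hmx3, a homeobox gene, at a distance of 0.20. It was followed by Gm12121 (0.21), the anion exchanger gene of intercalated cells Slc4a9 (0.23), Dagla, which makes the endocannabinoid 2-arachidonoylglycerol (0.26), and Soga1 (0.26). Hmx3 was at 4.39, 4.25 and 2.65 CPM in Hes1 cKO 1, 2 and 3, and at 0.459, 0.741, 0.659 and 0.546 CPM in control 1 to 4, like Wnt6 lowest in Hes1 cKO 3 among the Hes1 cKO libraries. The log2 fold changes of Hmx3, Gm12121, Slc4a9, Dagla and Soga1 were 2.63, 1.55, 1.78, 1.32 and 1.19, against 2.47 for Wnt6. The added 1 shrinks differences at low levels such as those of Wnt6, so a near profile need not have a like fold change. Since all 5 were picked for this pattern, their differences between the groups are no added evidence.

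**Figure D3:**
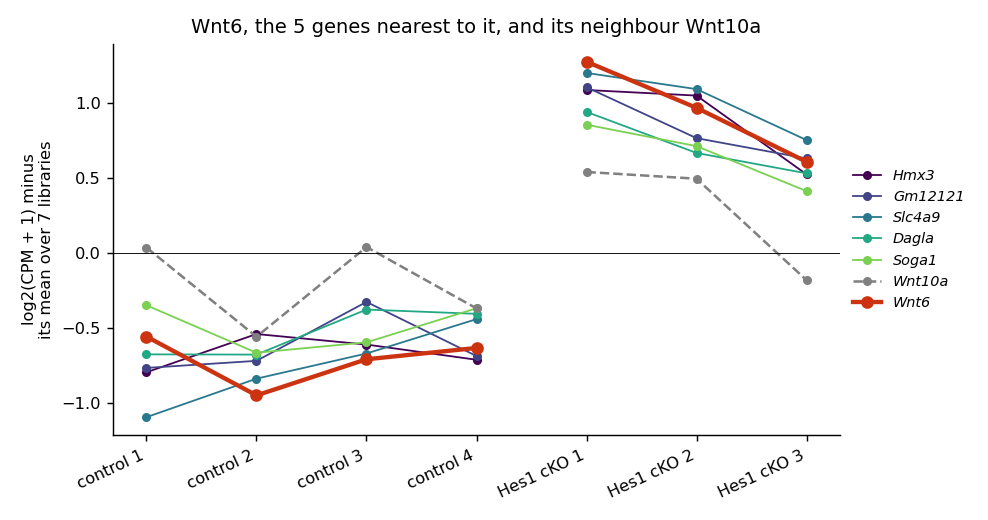
Profiles over the 7 libraries (log2(CPM + 1) minus the gene's mean) of Wnt6 in red, the 5 genes nearest to it, and Wnt10a, dashed; lines join libraries of a group only to guide the eye. In Hes1 cKO the 6 solid profiles fall in the same order of libraries, highest in Hes1 cKO 1, and Wnt10a drops below its mean in Hes1 cKO 3.

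Markers of intercalated cells, the acid-base cells of the collecting duct, differed between the groups in the same direction as Wnt6. All 10 were higher in Hes1 cKO, and edgeR called 8 of them higher, against 0.32% of all tested genes. Their log2 fold changes had a median of 1.41. The marker lists were chosen with earlier results of these data known, so calls among them are no added evidence. The intercalated cell markers summed to 1489 to 1600 CPM in Hes1 cKO and to 544 to 714 CPM in control. Within control this sum was lowest in control 1 (544 CPM), the control with the highest Wnt6 value (1.15 CPM). Wnt6 rests on 12 to 20 counts per control with overlapping Poisson 95% intervals, so the order of the controls is not resolved. Among Hes1 cKO 1, 2 and 3 the marker sum was 1596, 1600 and 1489 CPM, with Wnt6 at 6.67, 5.19 and 3.82 CPM. Of 7 tested principal cell markers all 7 were lower and 1 was called, with sums of 951 to 1401 CPM and 1495 to 2173 CPM. All 7 urothelium markers were higher by a small amount (median 0.15 in log2), and 0 were called. They summed to 69.9, 40.7 and 48.8 CPM in Hes1 cKO 1, 2 and 3, and to 41.4 to 45.9 CPM in control. Hes1 cKO 1, with the highest of these sums, was also highest for Wnt6. Hes1 cKO 2 lay only narrowly below the lowest control (40.7 and 41.4 CPM). The part of these cell types in the Wnt6 difference was not tested.

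The rest of the pathway was read from 81 genes in 8 lists that hold none of the 9 genes. Of these, 77 were in the table and 67 could be tested. With Benjamini-Hochberg adjustment over all tested genes, edgeR called 0 of the 67, against 0.339% of all tested genes. DESeq2 and limma-voom also called 0, against 0.833% and 0.327% of all tested genes. At such shares, 0 calls among 67 genes does not show that the pathway was unchanged. At an unadjusted p under 0.05 there were 6 of 67, against 5.95% of all tested genes. The log2 fold changes ran from -0.92 to 0.84, with 47 positive and 20 negative, beside 7564 positive and 8051 negative over all tested genes. Their median was 0.08, beside -0.01 over all tested genes.

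**Figure D4:**
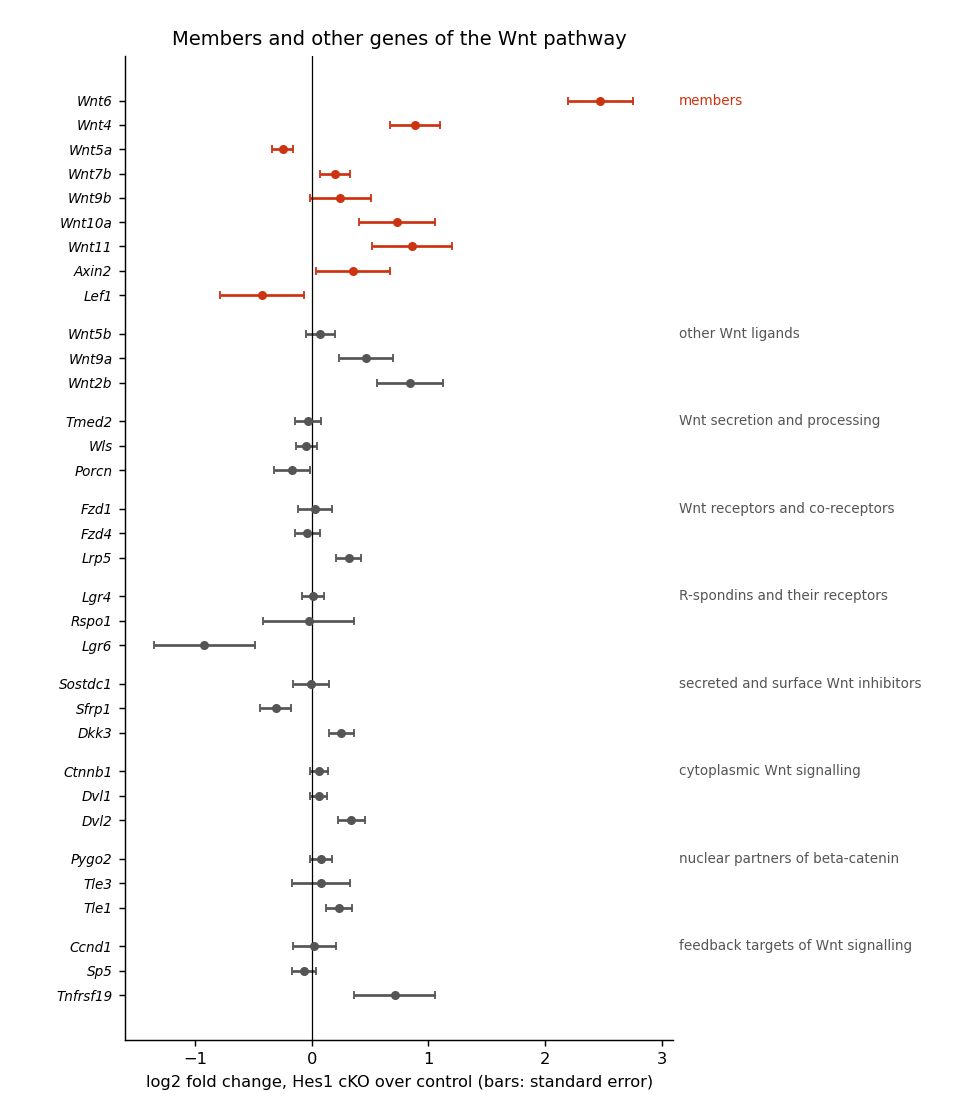
Log2 fold change of Hes1 cKO over control with its standard error for the 9 genes (red) and for the named genes of 8 other Wnt pathway lists (grey). Wnt6 lies at 2.47, and the grey points stay between -0.92 and 0.84.

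Among the other ligand genes, 4 of 12 could be tested and all 4 had positive log2 fold changes. Wnt2b, a canonical ligand, was at 5.34, 4.203 and 6.65 CPM in Hes1 cKO 1, 2 and 3 and at 3.21, 3.12, 1.70 and 3.98 CPM in control 1 to 4, without overlap. The difference of Wnt2b was 0.84 in log2 (edgeR adjusted p 0.693, SE 0.28). Wnt5b and Wnt9a had log2 fold changes of 0.07 and 0.47 (edgeR adjusted p 0.984 and 0.885). The ligand genes Wnt1, Wnt2, Wnt7a, Wnt8b and Wnt10b stayed under 0.83 CPM in every library and were not tested.

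Of 5 ligand secretion genes 0 were called. Wls, the carrier that brings Wnt proteins to the cell surface, averaged 245 CPM in Hes1 cKO (SD 13.4, n = 3) and 253 CPM in control (SD 19.4, n = 4). Porcn, the enzyme that attaches the lipid, had a log2 difference of -0.17 (edgeR adjusted p 0.962, SE 0.15), and Tmed2 one of -0.03 (SE 0.11).

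Of 16 receptor genes 15 could be tested, 11 with positive and 4 with negative log2 fold changes. The most abundant per kilobase were Fzd1 (0.03, SE 0.15) and Fzd4 (-0.04, SE 0.10). The co-receptor gene Lrp5 was at 153, 155 and 128 CPM in Hes1 cKO 1, 2 and 3 and at 133, 108, 111 and 115 CPM in control 1 to 4. Only control 1 reached into the Hes1 cKO range of Lrp5, whose log2 difference was 0.32 (edgeR adjusted p 0.690, SE 0.11). Among R-spondins, which strengthen Wnt signals, and their receptors, 4 of 6 could be tested. Lgr4 (0.01) and Rspo1 (-0.03) were near 0, and Lgr6 was at -0.92 (SE 0.43, edgeR adjusted p 0.861).

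The 11 tested genes of secreted and surface inhibitors had a median log2 fold change of -0.11. Sfrp1, a decoy that binds Wnt proteins, was at 214, 186 and 157 CPM in Hes1 cKO 1, 2 and 3 and at 214, 249, 261 and 198 CPM in control 1 to 4. The groups of Sfrp1 overlapped, with a log2 difference of -0.31 (edgeR adjusted p 0.818, SE 0.13). Sostdc1 was at -0.0033 (SE 0.15) and Dkk3 at 0.25 (SE 0.11, edgeR adjusted p 0.817).

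Inside the cell, all 10 cytoplasmic genes and all 8 nuclear partners of beta-catenin had positive log2 fold changes, none called, with medians of 0.11 and 0.08. With library totals in place of TMM, the signs in these 2 lists were the same, and over all tested genes 8209 were positive and 7406 negative. Ctnnb1, which encodes beta-catenin, averaged 453 CPM in Hes1 cKO (SD 17.9, n = 3) and 434 CPM in control (SD 17.97, n = 4), or 0.06 in log2 (edgeR adjusted p 0.975, SE 0.08). The Dishevelled genes Dvl1 and Dvl2, which relay the receptor signal, were at 0.06 (SE 0.07) and 0.34 (SE 0.12, edgeR adjusted p 0.693). The nuclear partners Pygo2, Tle3 and Tle1 were at 0.08, 0.08 and 0.23 (edgeR adjusted p 0.974, 0.993 and 0.866).

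The 10 feedback targets other than Axin2 had a median log2 fold change of 0.20, with 8 positive, 2 negative and 0 called. Sp5, a transcription factor gene that canonical signalling turns on in many tissues, was at 18.3, 20.9 and 19.5 CPM in Hes1 cKO 1, 2 and 3 and at 18.6, 21.2, 20.5 and 21.6 CPM in control 1 to 4. The groups of Sp5 overlapped, with a log2 difference of -0.07 (edgeR adjusted p 0.9795, SE 0.10). Ccnd1, the cyclin D1 gene, was at 0.02 (SE 0.18), and Tnfrsf19 at 0.71 (SE 0.35, edgeR adjusted p 0.885).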

How the data were processed

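Total RNA of whole mouse kidneys was read as 150 bp pairs per the labels' protocols. The authors deposited 2 tables of whole-number read counts per gene, not normalized. The submitters' processing notes name FastQC, STAR, DESeq2 and the builds mm10 and GRCm38; how counts were made, with which annotation and strand setting, was not given in the sources used here. The analysed table has 3 columns marked mutant (Hes1 cKO) and 4 marked wild type (control); the 9 columns of the other table show no genotype and were not used. Titles name 7 Hes1 cKO and 9 control kidneys, and the series text the reverse. Sources do not say that each library is a separate mouse, so p-values measure the spread between these libraries. All pairs of libraries within a group differed beyond sampling noise (12.1 to 42.1 in chi-square per degree of freedom).

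Genes passed filterByExpr (minimum count 10), TMM scaling and edgeR's quasi-likelihood test (edgeR 4.0.16, R 4.3.3) with Benjamini-Hochberg adjustment over all 15615 tested genes (threshold 0.05). CPM uses TMM library sizes; logs add 1. SE derives from the F statistic. Exon lengths and positions come from GENCODE M21, promoters from RefSeq. DESeq2 1.42.0 and limma 3.58.1 served as alternatives. The scripts were tested on simulated data. Intervals cover counting error only, since reads carry no molecular identifiers. The 9 genes and all lists were chosen with earlier results of these data known. Named genes are the 9, Hes1, per pathway list the 2 with the highest level per kilobase and the 1 with the smallest p, and the 5 nearest to Wnt6.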

Additional observations from a re-analysis of the deposited data

Results flagged for a closer look

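The 4 control libraries were checked for 1 library far from the others in 34 genes (Hes1, the 9 genes and the named pathway genes), and chance alone gives about 1 in 20. There was 1 such gene, Pygo2, whose level of 38.4 CPM in control 3 stood below the 40.03 to 40.2 CPM of the other controls. Its ratio of gap to range was 0.891, which passes the critical value of Dixon for 4 samples. The gap is small beside the Hes1 cKO range of Pygo2 (37.9 to 48.1 CPM). None of the 9 genes stood apart in this way.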

How the results depend on the processing

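The log2 fold change of Wnt6 ran from 2.26 (without Hes1 cKO 1) to 2.65 (without Hes1 cKO 3) over 16 alternatives; it was chosen on this contrast, so its calls support nothing. Hes1 was lower and called in all 16, from -1.80 to -1.51. The count of called genes was 53; it was 130 with DESeq2, 102 without a filter on low counts, and 25 (without Hes1 cKO 2) to 47 (without control 2) when 1 library was left out, 27 without Hes1 cKO 1. Of the 9 genes 1 was called; 2 (Wnt6 and Wnt4) were with DESeq2 (0.833% of all genes), without a filter (0.352%) and without control 1 (0.272%), and 1 to 2 when 1 library was left out. Leaving out together Hes1 cKO 3, control 1 and control 2, the libraries with at least 99 CPM of adrenal markers, was chosen after seeing the data. It gave 220 called genes (1.41%), 2 of the 9, and 1 pathway gene, Tle3 (log2 fold change 0.66, edgeR adjusted p 0.0311; 0.0311 to 0.9997 over all 16 alternatives). That fit sets 2 Hes1 cKO libraries with low Xist against 2 controls with high Xist, so genotype and Xist cannot be told apart in it; Axin2 was at 0.88, Lef1 at -0.86 and Wnt4 at 1.23 there. No pathway gene was called in the other 15. Of 511 log2 fold changes of 32 single genes under alternatives, 33 changed sign, in 11 genes: Axin2 of the 9, and 10 pathway genes, whose reported values were 0.0815 at most in size. By the longest transcript in place of all exons, 2 of 9 genes changed rank in each group, and Wnt6 was the eighth in control by both, and rank 5 in place of 6 in Hes1 cKO. No paired analysis was possible because the columns carry no replicate numbers of the labels. Low counts limit Wnt6 in control (12 to 20 counts) and Lef1 (12 to 27).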
